A study of Homo sapiens with 48 samples.

Results

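The state described here is that of 22Rv1 prostate cancer cells that were depleted of androgen and treated with a Mediator kinase inhibitor at the same time, in the subline Rv1-Luc. It is represented by 3 Rv1-Luc libraries grown in androgen-depleted medium with charcoal-stripped serum (CSS) plus SNX631, compared with 3 Rv1-Luc libraries grown in ordinary medium, with unstripped fetal bovine serum (FBS) that contains androgen, plus vehicle. These 6 libraries, taken by their labels, are part of 48 RNA-Seq libraries from 22Rv1 and its derivatives. SNX631 was given at 500 nM for 72 hours, and vehicle was 0.1% DMSO for the same time. Cells in CSS had been moved into that medium a passage before treatment, so androgen had been removed for longer than the inhibitor had been present. Rv1-Luc is 22Rv1, a castration-resistant human prostate carcinoma line, transduced with a firefly luciferase lentivirus. Both states of the comparison therefore carry the transgene, and both retain intact CDK8 and CDK19. The other arms used beside it are Rv1-Luc in FBS with SNX631 and in CSS with vehicle, and the same 4 conditions in the parental line, Rv1-WT, with 3 libraries in each group.

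CDK8 and its paralog CDK19 are the kinases of the Mediator complex, which connects transcription factors with RNA polymerase II. They mostly modify transcription that other signals have switched on, and SNX631 inhibits both. Luminal prostate cells depend on androgen, which charcoal stripping removes from serum, and 22Rv1 cells keep growing without it. Charcoal also takes other small lipophilic molecules out of serum, and the 2 sera can differ in more than androgen.

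The 12 Rv1-Luc libraries held 19.5 to 27.3 M counts, and the 6 of the main comparison 19.5 to 23.6 M. Luciferase reads numbered 10231 to 13996 per Rv1-Luc library and 0 in each of the 12 Rv1-WT libraries, as the labels say. All 8 luminal prostate markers were present, with a summed level of 3190 to 3240 CPM (counts scaled to a common library size with TMM factors) in FBS vehicle and 3370 to 3550 in CSS + SNX631. The 4 basal markers summed to 0.363 to 0.971 CPM in FBS vehicle and 1.18 to 2.42 in CSS + SNX631. Nearly all of this was KRT15, at 0.335 to 0.971 and 1.16 to 2.42 CPM, while KRT5, KRT14 and TP63 had at most 1 count in any of the 6 libraries. The endothelial markers CDH5 and KDR had 0. Stromal markers summed to 15.7 to 16.9 CPM in FBS vehicle and 19.2 to 20.9 in CSS + SNX631, leukocyte markers to 1.68 to 2.14 and 1.52 to 2.83, and a plasma cell list of 7 genes to 270 to 276 and 263 to 281. Most of the plasma cell sum was XBP1, at 163 to 178 and 127 to 134 CPM, and SDC1, at 74.6 to 95.2 and 125 to 144 CPM. Among the remaining genes of that list IGHG1 reached the most, 9.77 CPM. Immunoglobulin genes, which prostate epithelium does not normally express, took 654 to 1476 counts per FBS vehicle library, 414 to 1166 per CSS + SNX631 library, and 49 to 98 per Rv1-WT library. Replicates 1 and 2 of FBS vehicle differed more than other pairs of Rv1-Luc replicates. Their counts gave 8.82 for chi-square divided by its degrees of freedom, and the other pairs 1.87 to 4.73.

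Combined depletion and inhibition changed 828 of 20009 tested genes (4.14%), which passed both limits of the study, an edgeR false discovery rate (FDR) of 0.01 and a 1.5-fold change. Of these, 517 (2.58% of tested genes) were higher and 311 (1.55%) lower than in FBS vehicle, and 248 and 141 of them changed over 2-fold. Smaller changes were widespread, with 4887 genes at an edgeR FDR under 0.05 when no fold limit was set. The median log2 fold change over all tested genes, which scaling holds near 0, was 0.02, and the quartiles were -0.14 and 0.19.

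Each path from the untreated to the joint state passes through a single-agent arm, and the single steps share libraries with the joint comparison, so they are given side by side as a description. The SNX631 step changed 734 genes in FBS and 813 in CSS (3.67% and 4.06% of tested genes). The CSS step changed 298 under vehicle and 303 under SNX631 (1.49% and 1.51%). Over the 517 genes that were higher in the joint state, the median log2 fold change was 0.99 for both agents, 0.79 and 0.76 for SNX631 in FBS and in CSS, and 0.25 and 0.23 for CSS under vehicle and under SNX631. For the 311 lower genes, the corresponding medians were -0.94, -0.57 and -0.68, and -0.27 and -0.30. In both sets and both media the median step of the inhibitor was the larger. The genes were selected by the joint change, which is the sum of the steps along either path, so the shared sign of these medians follows from the selection and nothing is read from it.

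**Figure D1:**
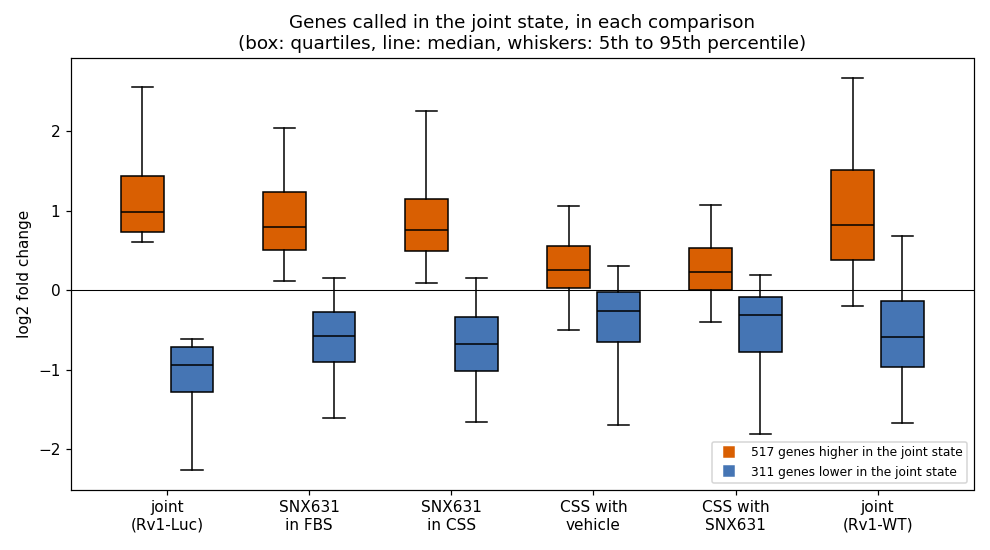
Box plots of log2 fold changes (y axis) for the genes called higher (orange) or lower (blue) in the joint state, in each of 6 comparisons along the x axis. Boxes show quartiles, lines medians and whiskers the 5th to 95th percentiles. The joint medians are 0.99 and -0.94, and the boxes for SNX631 lie farther from 0 than those for CSS.

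In a small group of genes both agents acted in the same direction in each setting. Among symbol-bearing genes whose mean over the 12 Rv1-Luc libraries reached 1 CPM, 7 genes were called higher and 1 lower by SNX631 in both media and by CSS under both treatments. The highest joint change among symbol-bearing genes whose mean over the 6 libraries reached 1 CPM was that of REG4, a secreted lectin-like protein of the gut and of neuroendocrine tumors. REG4 was at 0.769, 0.503 and 0.727 CPM in FBS vehicle, at 2.55, 2.56 and 2.07 with SNX631 alone, at 1.20, 2.8 and 2.31 with CSS alone, and at 7.90, 6.17 and 7.08 with both. The joint libraries exceeded those of every other Rv1-Luc arm, and the joint change was 10.5-fold (log2 3.39 ± 0.23 SE, edgeR FDR = 1.23e-18).

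GATA3, a zinc-finger transcription factor of luminal epithelia, followed the same pattern. Its level was 1.13, 1.47 and 1.18 CPM in FBS vehicle, 4.62, 3.76 and 4.14 with SNX631 alone, 1.79, 2.57 and 2.45 with CSS alone, and 12.3, 12.0 and 13.1 CPM with both, a 9.83-fold change (edgeR FDR = 8.41e-25). INHBA, which encodes the activin βA subunit, rose from 1.05, 1.72 and 1.86 CPM to 8.04, 8.21 and 9.88 CPM. For INHBA the CSS step (log2 1.49 under vehicle) was the larger and the SNX631 step (1.10 in FBS) the smaller. GRM3, a metabotropic glutamate receptor, and MAPK4, an atypical MAP kinase, completed the 5 highest, with joint log2 fold changes of 2.88 ± 0.24 and 2.21 ± 0.13 (SE).

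SLC45A3 (prostein), a prostate-restricted transporter known as an androgen-regulated gene, was the single gene of that kind called lower in all 4 steps, with the fold limit included. ACSL3, NKILA, TP53INP2 and BNIP3 were also lower in all 4 steps at an FDR under 0.01, but each missed the fold limit in at least 1 of them. SLC45A3 fell from 75.8, 72.9 and 71.7 CPM in FBS vehicle to 25.8, 28.2 and 35 CPM with SNX631 alone, to 30.8, 31.7 and 30.2 CPM with CSS alone, and to 17.5, 16 and 12 CPM with both. None of these states overlapped with FBS vehicle, and the joint change of SLC45A3 was -2.28 ± 0.08 on the log2 scale (SE, edgeR FDR = 2.13e-32).

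**Figure D2:**
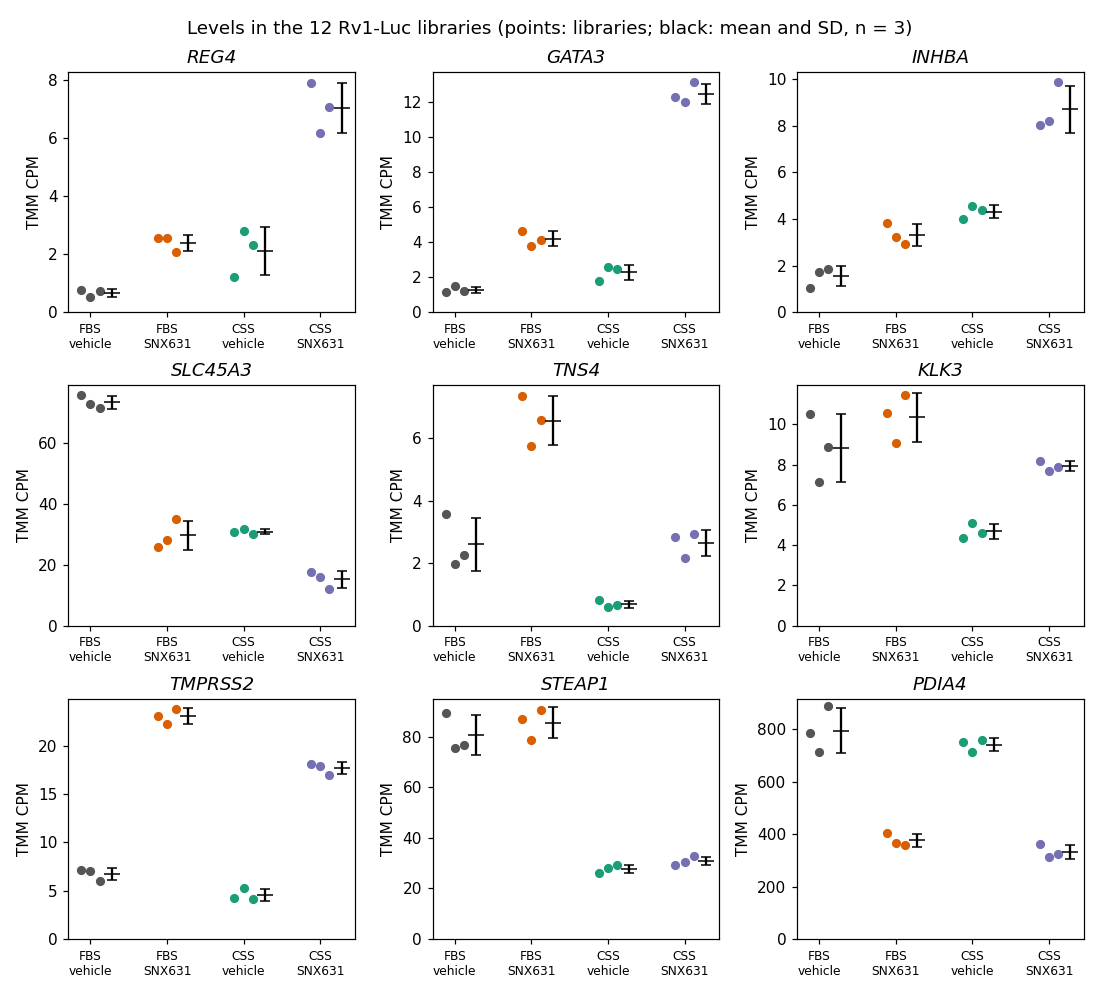
TMM-scaled CPM (y axis) of 9 genes in the 4 Rv1-Luc arms (x axis), with a point per library and the mean and SD of 3 libraries in black. In the top row and for SLC45A3 the joint arm lies beyond both single agents, TNS4 and KLK3 return to near their FBS vehicle level, TMPRSS2 and PDIA4 follow SNX631, and STEAP1 follows the medium.

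The agents opposed each other in 15 further genes of that kind, each called one way by SNX631 in both media and the other way by CSS under both treatments. All of the 5 with the largest steps were raised by SNX631 and lowered by CSS. TNS4, a focal adhesion protein of the tensin family, shows this most plainly. Its level was 3.56, 1.97 and 2.27 CPM in FBS vehicle, 7.35, 5.77 and 6.60 with SNX631, 0.809, 0.586 and 0.647 with CSS, and 2.85, 2.18 and 2.94 with both. The joint libraries lay within the range of FBS vehicle, with a log2 fold change of 0.02 ± 0.19 (SE, edgeR FDR = 0.96). CYP4F8, a prostaglandin hydroxylase, ANKRD33 and EBF1, a transcription factor of B cells and stroma, likewise had joint changes of 0.52 ± 0.24, 0.37 ± 0.27 and 0.38 ± 0.17 that did not pass the test. ST8SIA1, which makes the ganglioside GD3, remained above FBS vehicle (0.88 ± 0.19, edgeR FDR = 3.69e-04), although this call was lost without FBS vehicle replicate 2 (0.69) or without CSS + SNX631 replicate 3 (0.65).

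Among androgen-responsive genes calls were made in both directions, and most members were not called. Of 25 listed genes 24 were tested, 2 were called higher and 4 lower (2.58% and 1.55% of all genes), and their median log2 fold change was -0.09, beside 0.02 for all genes. By step, the list's median was -0.55 for CSS under vehicle and -0.22 for CSS under SNX631, and 0.20 and 0.26 for SNX631 in FBS and in CSS. KLK3, which encodes PSA, was at 10.5, 7.13 and 8.85 CPM in FBS vehicle, at 4.33, 5.10 and 4.62 CPM with CSS alone and at 8.19, 7.70 and 7.88 CPM with both. CSS alone lowered KLK3 (log2 -0.92), SNX631 in CSS raised it (0.76), and the joint level overlapped with FBS vehicle (-0.16 ± 0.13 SE, edgeR FDR = 0.414). KLK2, the neighboring kallikrein, had a joint log2 fold change of -0.43 ± 0.17 (edgeR FDR = 0.0632), which passed the limits without FBS vehicle replicate 2 (-0.64) or CSS + SNX631 replicate 3 (-0.70).

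TMPRSS2, an androgen-regulated serine protease, was called higher in the joint state. It was at 7.12, 7 and 6.04 CPM in FBS vehicle and 18.1, 17.95 and 17 CPM in CSS + SNX631, a 2.62-fold rise (edgeR FDR = 1.55e-20). SNX631 alone raised it further, to 22.2 to 23.8 CPM, and CSS alone gave 4.16 to 5.28 CPM. KLK4 rose 2.47-fold, with fractional counts in 47.9% of libraries. Fractional counts may mark reads divided between genes or positions, which the sources used here do not state. Besides SLC45A3, the lower members were NDRG1 (log2 -1.88), HPGD, a prostaglandin-degrading enzyme (-0.81), and EAF2, an elongation factor partner (-1.11). NDRG1 is also induced by low oxygen and had fractional counts in 47.9% of libraries. The call of EAF2 was lost without FBS vehicle replicate 1 or 2 or CSS + SNX631 replicate 1 or 2 (-0.84 to -1.16).

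Of 11 steroid receptor and androgen glucuronidation genes, 3 were called lower and 1 higher (1.55% and 2.58% of all genes), with a median of -0.42. Every called gene was of the UGT2B family. The median was the value of UGT2B7, which was not called (-0.42 ± 0.73 SE). By library, the list's median relative to the FBS vehicle mean was 0.038, -0.283 and -0.115 in the joint state. The UGT2B enzymes attach glucuronic acid to androgens and so inactivate them. UGT2B15 was at 5.95, 7.17 and 8.81 CPM in FBS vehicle and at 4.12, 3.25 and 3.17 with both agents. CSS alone gave 10.0 to 11.3 CPM and SNX631 alone 2.19 to 2.79 CPM, so the joint level lay between the single agents (joint log2 -1.05 ± 0.12 SE, edgeR FDR = 4.98e-10). UGT2B11 (-1.13) and UGT2B28 (-3.10) were also lower. UGT2B17 was called higher (1.71), but not without FBS vehicle replicate 1 (1.59), FBS vehicle replicate 2 (1.40) or CSS + SNX631 replicate 3 (1.10). These genes are close paralogs of low level, and their reads can be hard to assign.

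Within the Mediator kinase module, CDK19 was the only called gene of 7, and it was higher, as were 2.58% of all genes. CDK19 was at 112, 117 and 120 CPM in FBS vehicle, at 197 to 206 CPM with SNX631 alone, at 119 to 120 CPM with CSS alone and at 209, 195 and 199 CPM with both, a 1.73-fold rise (log2 0.79 ± 0.04 SE, edgeR FDR = 1.34e-22). The joint and SNX631 arms overlapped. CDK8 was at 29.7, 28.3 and 27.5 CPM in FBS vehicle and 24.4, 24.6 and 25.3 CPM in the joint state, without overlap, but its change of -0.20 ± 0.06 was below the fold limit (edgeR FDR = 4.36e-03).

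Genes of low oxygen and glycolysis had the highest share of called members among the 21 lists. Cells respond to scarce oxygen through hypoxia-inducible factors, which raise glucose import, glycolysis, lactate output and mitophagy. None of the 25 tested members was called higher and 13 (52%) were called lower, beside 1.55% of all genes, with a median log2 fold change of -0.59. BNIP3, a mitophagy receptor, was at 187, 138 and 155 CPM in FBS vehicle and at 58.2, 48.8 and 53.9 CPM in the joint state, well apart (log2 -1.58 ± 0.13 SE, edgeR FDR = 1.54e-11). LDHA, which converts pyruvate to lactate, went from 1365, 1105 and 1205 CPM to 726, 607 and 660 CPM (-0.88 ± 0.07). The regulators of fructose 2,6-bisphosphate PFKFB3 (-1.01) and PFKFB4 (-1.39), the aldolases ALDOA (-0.74) and ALDOC (-1.24), the glucose transporter SLC2A1 (-0.69) and the angiogenic factor VEGFA (-0.72) fell as well. Of the members not called, PFKP had the highest value (0.30), while GAPDH (-0.54), PGK1 (-0.58) and ENO1 (-0.50) passed the FDR limit and missed the fold limit.

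The 12 genes with the greatest falls included SLC16A3, ANGPTL4, PPFIA4 and BHLHE40. SLC16A3, the lactate exporter MCT4, was at 23.3, 15.8 and 17.2 CPM in FBS vehicle and 5.10, 4.31 and 5.36 CPM in the joint state (log2 -1.93 ± 0.23). ANGPTL4, a secreted inhibitor of lipoprotein lipase, fell from 63.8, 42.6 and 50.5 CPM to 9.47, 10.8 and 12.3 CPM (-2.27 ± 0.11), with most of the change in the CSS step (-1.95 under vehicle). PPFIA4, a liprin, was lowest of all at -3.89 ± 0.41, and BHLHE40, a repressor of clock and metabolic genes, changed by -2.26 ± 0.31. SNX631 alone left PPFIA4 and BHLHE40 at log2 -0.28 and 0.00 in FBS, where replicate 2 was low (4.31 and 3.91 CPM) and replicates 1 and 3 were high (10.9 and 16.5, and 7.96 and 12.9 CPM). In CSS, SNX631 changed PPFIA4 and BHLHE40 by -2.60 and -1.79, and CSS under vehicle changed them by -1.29 and -0.47. The difference of the SNX631 effect between the media was -2.33 and -1.79 and missed the FDR limit (edgeR FDR = 0.0432 and 0.029).

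By library, the median of the hypoxia and glycolysis list relative to the FBS vehicle mean was -0.54, -0.61 and -0.61 in the joint state and -0.37, -0.41 and -0.32 with CSS alone. It was -0.10, -0.37 and 0.05 with SNX631 alone, so that replicate 2 of that arm sat with the CSS libraries. Cell density and oxygen in the wells are not given in the labels, and their part in the fall was not tested.

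**Figure D3:**
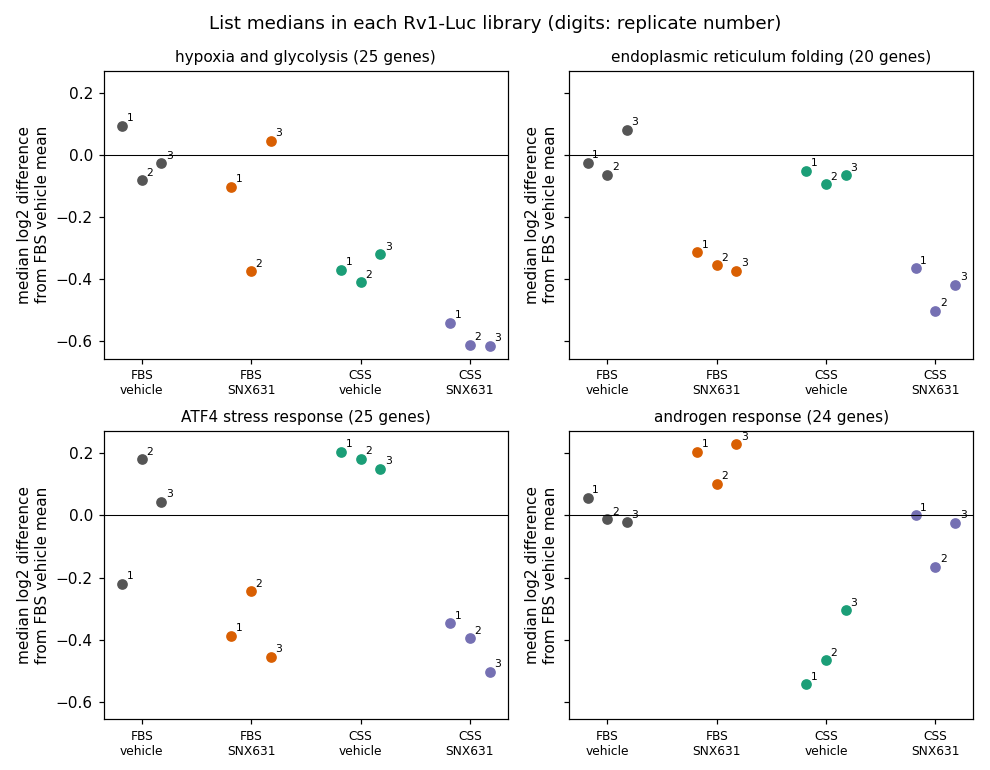
Median log2 difference from the FBS vehicle mean (y axis, log2 of CPM + 0.5) over the tested members of 4 gene lists, for each Rv1-Luc library (points, with the replicate number) in the 4 arms (x axis). Hypoxia genes are lowest in the joint libraries (-0.54 to -0.61), folding and ATF4 genes are low in both SNX631 arms, and androgen-response genes are low with CSS alone.

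Promoter sequences of called members are shown because hypoxia-inducible factors bind the short core ACGTG. RefSeq promoters (GRCh38.p14, 250 bases before to 50 after the gene start) were at hand for 11 of the 13 called genes, and 6 of them held ACGTG on either strand, beside 5900 of 27305 promoters (21.6%). Of the 23 tested list members with a promoter at hand, called or not, 10 held it. Matches on the 2 strands overlap in the palindrome CACGTG, which counts as 2. The promoter of LDHA (chr11:18394313-18394612, + strand) held 5 matches and that of BNIP3 (chr10:131981874-131982173, - strand) held 2. Capitals mark the matches.
LDHA: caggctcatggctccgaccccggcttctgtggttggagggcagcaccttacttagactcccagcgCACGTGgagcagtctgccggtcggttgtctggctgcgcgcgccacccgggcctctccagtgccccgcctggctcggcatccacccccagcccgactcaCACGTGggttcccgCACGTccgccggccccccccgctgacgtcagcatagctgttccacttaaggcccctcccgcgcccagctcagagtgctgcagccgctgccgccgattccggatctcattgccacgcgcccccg
BNIP3: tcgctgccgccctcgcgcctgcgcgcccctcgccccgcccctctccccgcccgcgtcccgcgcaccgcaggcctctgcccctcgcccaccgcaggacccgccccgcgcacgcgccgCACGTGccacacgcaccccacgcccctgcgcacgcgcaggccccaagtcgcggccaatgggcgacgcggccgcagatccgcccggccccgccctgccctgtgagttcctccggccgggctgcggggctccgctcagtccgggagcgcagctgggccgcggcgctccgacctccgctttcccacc
So short a core occurs often, and a match is no evidence of binding.

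Chaperones and disulfide isomerases of the endoplasmic reticulum (ER) fell with the inhibitor and stayed low in the joint state. When unfolded protein builds up in the ER, the factors ATF6 and XBP1 raise these genes. Of 20 tested members 6 (30%) were called lower, beside 1.55% of all genes, and none higher, the median was -0.42, and all 20 values were negative. PDIA4, a protein disulfide isomerase, was at 784, 714 and 886 CPM in FBS vehicle, at 406, 367 and 359 with SNX631 alone, at 712 to 757 with CSS alone and at 364, 311 and 323 CPM with both. The SNX631 arms did not overlap with the vehicle arms, and the joint change was -1.26 ± 0.05 on the log2 scale (SE, edgeR FDR = 2.65e-29). HSPA5 (BiP), the central ER chaperone, went from 1371, 1293 and 1564 CPM to 722, 598 and 662 CPM (-1.09 ± 0.05), and HSP90B1 (GRP94) changed by -1.06 ± 0.04. HERPUD1, which serves ER-associated degradation, MANF and DNAJC3 fell by less (-0.91, -0.78 and -0.63). By step, the list's median was -0.32 and -0.37 for SNX631 and -0.07 and -0.14 for CSS.

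The promoters of HSPA5 and HSP90B1 are shown because they hold the ER stress response element that ATF6 recognizes together with NF-Y. This motif, CCAAT and CCACG with any 9 bases between them, on either strand, was found in 22 of 27305 promoters (0.0806%), in 2 of the 6 called ER genes and in 6 of the 19 tested ER genes with a promoter in the table. HSPA5 (chr9:125241294-125241593, - strand) had 1 match and HSP90B1 (chr12:103930160-103930459, + strand) had 2, in capitals.
HSPA5: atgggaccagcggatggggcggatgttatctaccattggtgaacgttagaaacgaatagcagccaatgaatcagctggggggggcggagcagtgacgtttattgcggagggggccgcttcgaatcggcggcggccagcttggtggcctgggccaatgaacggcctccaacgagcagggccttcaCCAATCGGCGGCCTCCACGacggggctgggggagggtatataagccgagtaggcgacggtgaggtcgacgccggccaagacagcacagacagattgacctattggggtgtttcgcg
HSP90B1: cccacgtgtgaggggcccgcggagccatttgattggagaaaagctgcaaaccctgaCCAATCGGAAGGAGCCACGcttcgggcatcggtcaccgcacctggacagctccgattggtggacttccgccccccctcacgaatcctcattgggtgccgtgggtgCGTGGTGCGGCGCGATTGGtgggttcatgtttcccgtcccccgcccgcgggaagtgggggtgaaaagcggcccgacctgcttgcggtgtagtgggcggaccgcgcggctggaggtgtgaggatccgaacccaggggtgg
PDIA4, DNAJC3, MANF and HERPUD1 had no match to these letters in the same window. HSP90B1 had fractional counts in 50% of libraries.

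The ATF4 stress response, which serves amino acid supply and redox balance under stress, was also lower. ATF4 itself was at 484, 606 and 570 CPM in FBS vehicle and 424, 400 and 396 CPM in the joint state (log2 -0.44 ± 0.05 SE, edgeR FDR = 1.62e-09), without overlap but below the fold limit. Of 25 members 6 were called lower, beside 1.55% of all genes, and none higher, with a median of -0.44. In a fit on the 6 libraries alone 3 were called lower. DDIT3 (CHOP), a stress factor that promotes cell death, was at 50.1, 60.8 and 60.6 CPM in FBS vehicle and 26.1, 24.1 and 24.6 CPM in the joint state (-1.20 ± 0.06), with fractional counts in 58.3% of libraries. DDIT4 (REDD1), an inhibitor of mTORC1, changed by -1.59 ± 0.11, the cystine transporter SLC7A11 by -1.10 ± 0.15 and asparagine synthetase, ASNS, by -0.83 ± 0.10. CHAC1, which degrades glutathione, was at 4.78, 14.3 and 10.5 CPM in FBS vehicle and 2.75, 2.83 and 2.28 CPM in the joint state (-1.91 ± 0.25). FBS vehicle replicate 1 was low for ATF4, DDIT3 and CHAC1, and without it 11 rather than 6 members were called lower, ATF3 among them (-0.63). The list's median was -0.34 and -0.58 for SNX631 in FBS and in CSS and 0.17 and -0.01 for CSS under vehicle and under SNX631. None of the 20 aminoacyl-tRNA synthetases, many of them ATF4 targets, was called, and their median was -0.17. Their changes were small, with 17 negative values. At an edgeR FDR under 0.05 with no fold limit, 12 were lower and 1 higher, beside 2317 and 2570 of 20009 tested genes. The letters TGATGNAAT, used for the element bound by ATF4 with C/EBP proteins, were in none of the 5 promoters at hand for the called genes. These letters were in 0 of the 19 promoters at hand for tested members and in 279 of 27305 promoters (1.02%). The ASNS and CHAC1 promoters each held a sequence that differed from them only in the last base, on either strand. Forms of the element with another last base were not searched for, so its absence from these promoters is not shown.

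Of 12 surface antigens 1 was called higher and 2 lower (2.58% and 1.55% of all genes), with a median of 0.02. STEAP1 is used as a target for antibodies in prostate cancer. It was at 89.6, 75.7 and 76.9 CPM in FBS vehicle and at 78.8 to 90.7 CPM with SNX631 alone. With CSS alone STEAP1 was at 26.0 to 29.2 CPM, and with both agents at 29.5, 30.5 and 32.8 CPM. The CSS arms lay below both FBS arms, and the joint change was -1.38 ± 0.06 (SE, edgeR FDR = 3.38e-26). STEAP2, its neighbor in the genome, behaved alike, with a joint change of -1.35 ± 0.06 and single steps of 0.04 for SNX631 in FBS and -1.44 for CSS under vehicle. FOLH1, which encodes PSMA, was at 367, 426 and 407 CPM in FBS vehicle, at 501 to 548 CPM with CSS alone and at 442, 387 and 395 CPM with both (joint log2 0.03 ± 0.05, edgeR FDR = 0.746). CDH17, an intestinal cadherin at low level, was called higher (1.56 ± 0.39), but not without FBS vehicle replicate 1 or 2 or CSS + SNX631 replicate 1 or 2 (1.38 to 1.45).

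Some neuroendocrine, Wnt and keratin genes were called higher, as were 2.58% of all genes. Among 11 tested neuroendocrine genes 2 were called higher and none lower (median 0.40). SCGN, a calcium sensor, went from 2.35, 1.89 and 2.18 CPM to 8.19, 5.94 and 7.503 CPM (log2 1.75 ± 0.17), and the granin CHGB from 22.1, 27.0 and 27.3 to 53.4, 50.04 and 45.2 CPM (0.96 ± 0.07). Of 17 Wnt genes 3 were called higher and none lower (median 0.10): RNF43, a ligase that removes Wnt receptors (1.06 ± 0.08, fractional counts in 58.3% of libraries), the ligand WNT7B (0.91 ± 0.14) and the receptor LGR5 (0.61 ± 0.17). The call of LGR5 was lost in 9 of 16 alternatives, among them the fits that left out any library but CSS + SNX631 replicate 3 (0.52 to 0.67). Both called keratins of 6 tested, KRT80 (1.83 ± 0.38) and KRT15 (1.48 ± 0.37), were at 0.168 to 2.42 CPM. Without CSS + SNX631 replicate 3 neither was called (1.40 and 1.04), nor was KRT15 without FBS vehicle replicate 2 (1.22) or 3 (1.27).

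PDK4, which shuts pyruvate out of the mitochondrial citrate cycle, had the lowest FDR among the 12 highest named genes. It rose from 18.9, 26.0 and 23.3 CPM to 128, 117 and 126 CPM (5.47-fold, edgeR FDR = 4.33e-37), and SNX631 alone gave 80.9 to 95.7 CPM. CAV1, the main protein of caveolae, rose from 1.42, 1.84 and 0.681 to 7.46, 8.49 and 7.83 CPM. The remaining genes of that group, CGA, EVX1, UNC5C, ODAM, TFCP2 and ST8SIA6, had joint log2 fold changes of 2.42 to 2.72 at levels of 0.162 to 5.27 CPM. At the other end, NKILA, a long noncoding RNA that restrains NF-κB, fell from 49.9, 45.2 and 50.1 CPM to 9.22, 8.30 and 7.46 CPM (-2.54 ± 0.08 SE, edgeR FDR = 7.51e-33). LDLRAD1 (-3.15), CNTNAP5 (-2.40), PROC, the anticoagulant protein C (-2.18), DHRS2 (-2.10) and TP53INP2, an autophagy protein (-1.97), fell too. CNTNAP5 followed the medium, at 3.08 to 4.45 CPM in both FBS arms and 0.231 to 0.844 CPM in both CSS arms. TRGJ1 (-2.14) is a T cell receptor segment with fractional counts in 95.8% of libraries.

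In several lists few genes or none were called, beside 2.58% of all genes called higher and 1.55% lower. None of 24 MYC and ribosome biogenesis genes, 26 mitosis genes, 17 cytosolic heat shock genes or 13 MHC class I genes was called in either direction, with medians of 0.06, -0.09, -0.05 and 0.03. Smaller changes were present. At an edgeR FDR under 0.05 with no fold limit, 7, 2, 1 and 1 of them were higher and 5, 10, 6 and 2 lower. Of all 20009 tested genes, 2570 were higher and 2317 lower at that limit. MYC was at 309, 279 and 280 CPM in FBS vehicle and 333, 312 and 308 CPM in the joint state (log2 0.13 ± 0.05, edgeR FDR = 0.0318). Of 27 DNA replication genes 1 was called, CCNE1 (cyclin E1, higher by 0.59 ± 0.10), and not without CSS + SNX631 replicate 3 (0.50). The median was -0.03. Among 23 sterol genes 1 was called lower, HMGCS1, the mevalonate pathway enzyme (-0.63 ± 0.13, list median -0.24). All 23 sterol values were negative, and 12 were lower at an edgeR FDR under 0.05 with no fold limit. HMGCS1 was at 579, 1099 and 977 CPM in FBS vehicle and 640, 619 and 455 CPM in the joint state, with an overlap through FBS vehicle replicate 1. It was not called without FBS vehicle replicate 2 (-0.45), FBS vehicle replicate 3 (-0.55) or CSS + SNX631 replicate 3 (-0.49). Of 12 fatty acid genes 1 was lower, ACSL3 (-0.69; list median -0.14).

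The interferon list was mixed, with 1 of 22 tested genes called higher and 5 lower (median -0.05), beside 2.58% and 1.55% of all genes. HERC5 and HERC6, ligases for ISG15 and ubiquitin, changed by -1.36 ± 0.23 and -1.20 ± 0.21, ISG20 by -0.83 and the regulators IRF1 and IRF7 by -0.67 and -0.64. MX1, an antiviral GTPase, was called higher (0.60 ± 0.16), but not without FBS vehicle replicate 1 (0.52), CSS + SNX631 replicate 1 (0.49) or CSS + SNX631 replicate 2 (0.59). The NF-κB list had NFKBIZ, an atypical IκB, higher (1.01 ± 0.08, fractional counts in 47.9% of libraries) and NKILA lower. Each was the only call in its direction among 14 tested genes (median 0.10), beside 2.58% higher and 1.55% lower of all genes. Of 11 EGF ligands and ERBB receptors only BTC, betacellulin, was called (-0.69 ± 0.13, list median -0.06), beside 1.55% of all genes called lower.

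**Figure D4:**
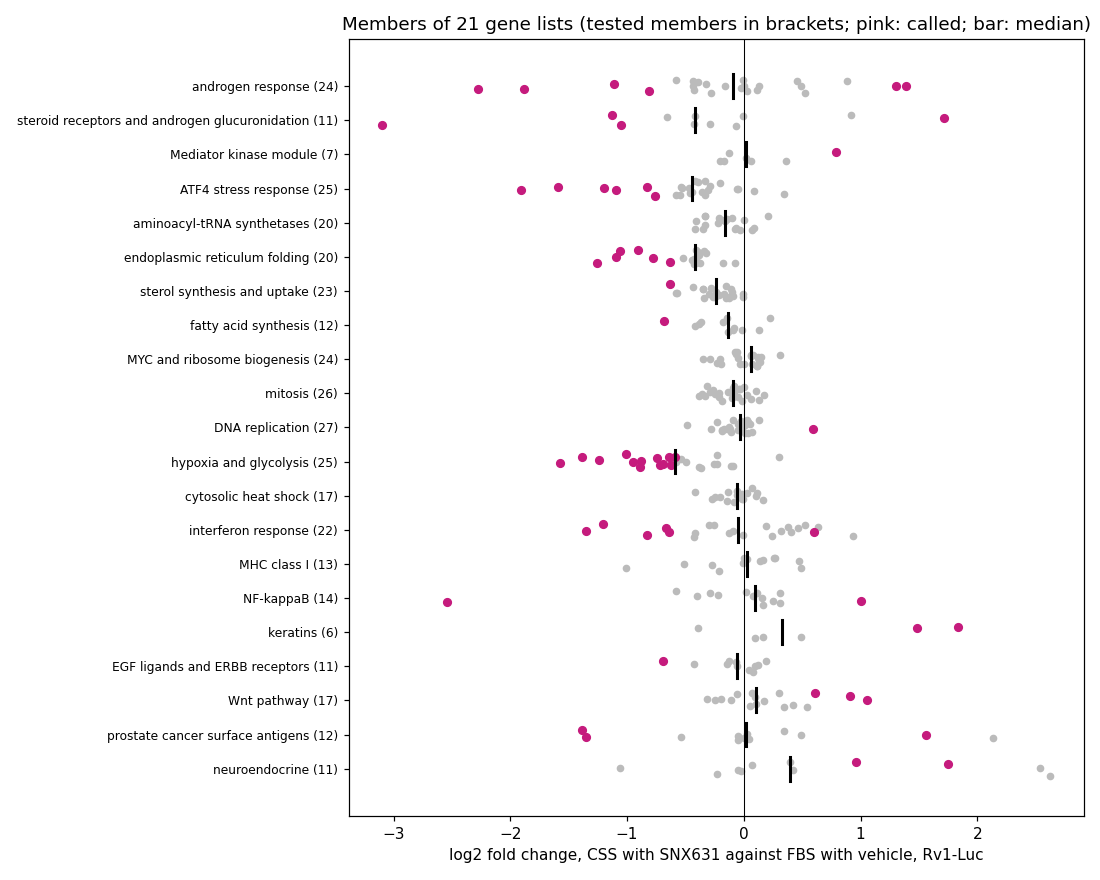
Joint log2 fold change (x axis) of every tested member of 21 gene lists (y axis, number tested in brackets), with called genes in pink and the list median as a black bar. The hypoxia and glycolysis list has 13 called genes, all lower, and its median of -0.59 is the lowest of the 21.

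Whether the joint change departed from the sum of the single steps was tested by the interaction of drug and medium. In all, 16 genes (0.08% of 20009) passed, 11 (0.055%) with a higher and 5 (0.025%) with a lower SNX631 effect in CSS than in FBS. With 3 libraries per arm, a gene that missed the limits is not thereby shown to change by the sum of the steps. KANSL1L, a chromatin regulator subunit, was at 86.3, 91.4 and 88.9 CPM in FBS vehicle, 97.8 to 106 CPM with SNX631 alone, 29.4 to 39.2 CPM with CSS alone and 77.2, 66.0 and 83.0 CPM with both (interaction log2 0.89, edgeR FDR = 1.50e-08). SNX631 raised it in CSS (1.09) while its change in FBS was 0.20. COLCA1 was similar, at 104 to 118 CPM in FBS vehicle, 13.9 to 18.2 CPM with CSS alone and 25.9 to 35.6 CPM with both (1.18, edgeR FDR = 2.48e-07). ACADL, a fatty acid oxidation enzyme, was lowered by either agent to 32.6 to 42.8 CPM from 72.1 to 73.1 CPM, and by both together to 30.9 to 36.2 CPM (0.70, edgeR FDR = 3.53e-08). KANSL1L and ACADL had fractional counts in 41.7% and 39.6% of libraries.

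NDRG1 went the other way (interaction -1.17, edgeR FDR = 4.90e-03), with 168 to 190 CPM in FBS vehicle, 98.9 to 135 with CSS alone and 41.5 to 54.1 with both. Its SNX631-only libraries ranged from 96.2 to 228 CPM. The immunoglobulin genes IGHG3 and IGHM and the antibody joining chain JCHAIN were also among the 16, and the total immunoglobulin counts moved with them: 263 to 795 with SNX631 alone, 223 to 276 with CSS alone and the ranges given above in the other arms. IGHG3 was at 0.728, 3.90 and 1.09 CPM in FBS vehicle and 2.35, 1.90 and 0.886 CPM in the joint state. The part of RNA from other cells in these values was not tested. The number of interaction genes was 2 in the 12 Rv1-Luc libraries alone and 50 without a filter on low counts. It also depended on single libraries, with 8 without SNX631-only replicate 1, 31 without SNX631-only replicate 2 and 27 without FBS vehicle replicate 1.

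The same joint treatment of Rv1-WT, which shares no library with Rv1-Luc, changed 2357 genes (11.8%), 1505 higher (7.52%) and 852 lower (4.26%). Of the 828 genes called in Rv1-Luc, 55.8% were also called in Rv1-WT, and of those called in Rv1-WT, 19.6% in Rv1-Luc. Among the 462 genes called in both, 443 changed in the same direction. Across the 2723 genes called in either line the log2 fold changes had a Pearson's r of 0.543 and a slope of Rv1-Luc on Rv1-WT of 0.384. Genes are not independent replicates, and selecting them by their calls affects both values. The difference itself passed the test in 1341 genes (6.7%), 583 with a higher and 758 with a lower joint change in Rv1-Luc. The labels give no batch, so line and any difference in handling cannot be told apart.

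Stress genes differed between the lines. Of the 25 ATF4 genes, 16 were called higher in Rv1-WT (list median 0.69, background 7.52%) against none in Rv1-Luc. For 20 the difference was called, each lower in Rv1-Luc (background 3.79%). DDIT3 rose in Rv1-WT from 68.4, 67.8 and 68.8 CPM to 129, 132 and 133 CPM, whereas it fell in Rv1-Luc (difference -2.14, edgeR FDR = 2.66e-30). ATF3 and GPT2, which makes glutamate and alanine interconvertible with their keto acids, had differences of -1.66 and -1.06. Among cytosolic heat shock genes, HSPA8 fell in Rv1-WT from 1658, 1744 and 1639 CPM to 447, 449 and 445 CPM, and in Rv1-Luc it was at 2402, 2291 and 2304 CPM and 1938, 1824 and 2045 CPM (difference 1.64, edgeR FDR = 2.66e-30). HSPA1B had a difference of 1.96. In that list 9 of 17 differences were called, all higher in Rv1-Luc (background 2.91%). HSPA8 and HSPA1B have close paralogs and had fractional counts in 62.5% and 81.2% of libraries, so their values are uncertain.

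For sterol synthesis 21 of 23 genes were called lower in Rv1-WT (median -0.99, background 4.26%), and 17 differences were called, all higher in Rv1-Luc (background 2.91%). HMGCS1 went from 792, 853 and 776 CPM to 152, 193 and 166 CPM in Rv1-WT (difference 1.61, edgeR FDR = 5.27e-08). TUBB, a β-tubulin, and SFN (14-3-3σ), a cell cycle checkpoint protein, had differences of 0.98 and 1.19. SFN rose in Rv1-Luc (0.92) and its change in Rv1-WT was -0.27. NBPF1, of a repeated gene family with fractional counts in 47.9% of libraries, had a difference of -1.39. Of 25 hypoxia and glycolysis genes, 13 were called lower in Rv1-Luc and 15 in Rv1-WT (background 1.55% and 4.26%), with medians of -0.59 and -0.62. Of 20 ER folding genes 6 and 9 were called lower, with medians of -0.42 and -0.52. The difference between lines was called for 2 genes of each list, beside 6.7% of all genes, which does not show that the lines responded alike. KLK3 was lower in the joint state of Rv1-WT, at 10.5, 11.6 and 9.93 CPM against 6.25, 5.22 and 6.25 CPM, and the difference between lines was 0.69 (edgeR FDR = 3.96e-03).

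**Figure D5:**
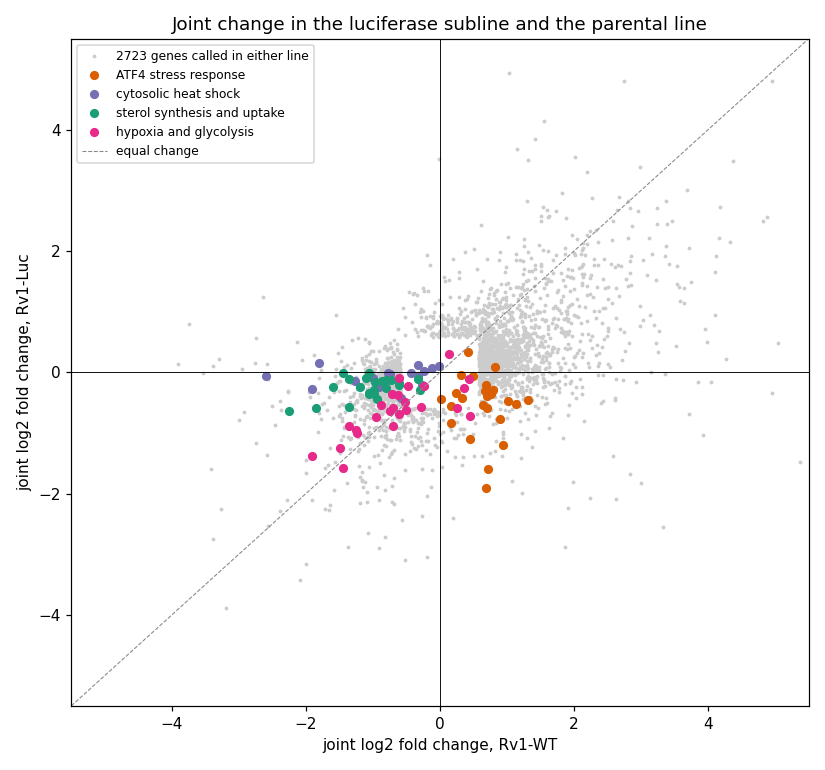
Joint log2 fold change in Rv1-Luc (y axis) against that in Rv1-WT (x axis) for 2723 genes called in either line (gray, of which 6 lie outside the axes) and for the members of 4 lists (colors). The dashed line marks equal change. ATF4 genes lie mostly right of 0 on the x axis and below 0 on the y axis, sterol and heat shock genes lie to the left and near 0 on the y axis, and hypoxia genes lie mainly at the lower left.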

How the data were processed

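Total RNA from cultures in biological triplicate (per the series' design) was made into strand-specific libraries. The submitters' processing notes name FastQC, cutadapt 2.8, STAR 2.7.2b, featureCounts and Subread 2.0.3, and the builds GRCh38.p13 and GRCm39. The annotation release, the use of strand and the treatment of shared reads are not given in the sources used here, so antisense and overlapping genes are uncertain. The deposited values are expected counts per gene, made by the authors from the reads and not scaled: 81.6% of nonzero values were whole, and the others may divide reads between genes or positions. The table has 61817 entries, including both transgenes, which were left out of the tests.

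Counts were rounded, and genes were kept by filterByExpr (minimum count 10, minimum total 15), which left 20009. All 48 libraries in 16 groups entered 1 fit without covariates (edgeR 4.0.16, limma 3.58.1, R 4.3.3; TMM; quasi-likelihood F-test, robust, two-sided; 32 residual degrees of freedom), with Benjamini-Hochberg adjustment over all genes. Genes were called at FDR under 0.01 and fold change over 1.5. SE is the log2 fold change divided by the root of F. The p-values measure the spread between these libraries. Errors after ± are SEs, and n is 3 per group; at 19.5 to 27.3 M counts per library, counting error alone is large for genes near 1 CPM. After the main fit, the procedure was also run on data simulated from its fitted values and spread, with known changes set in.

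The comparison, its members and the gene lists were chosen with earlier results of these data known, and list counts are descriptions. Genes were named by rule: the 12 highest and 12 lowest called in the joint comparison (symbol, mean of at least 1 CPM), up to 3 called members per list and direction, KLK3, KLK2, TMPRSS2, CDK8, CDK19, MYC, ATF4 and FOLH1, the 4 with the lowest p per direction for the difference between lines and the 4 with the lowest p for the interaction, and up to 5 genes per direction on which both agents acted alike or opposite. One item fixed in this rule is not reported here. Other list members, transgenes, markers and interaction genes were named after their values were seen. Same-numbered replicates did not correlate above 0.1 in every pair for any 2 arms compared, so numbers were not taken to pair samples. Alternatives were other scalings, filters, thresholds and libraries, a replicate block, and DESeq2 1.42.0. Promoters came from RefSeq (GRCh38.p14), and motifs were searched on both strands.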

Additional observations from a re-analysis of the deposited data

Results flagged for a closer look

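Joint effects that differed between the lines, by the test of the difference itself, are listed here as Rv1-Luc minus Rv1-WT on the log2 scale, and 1341 genes passed in all. Among the genes raised in Rv1-Luc, the joint effect was larger there for GATA3 (1.11), CAV1 (1.06), ST8SIA6 (1.81), WNT7B (0.88), CCNE1 (0.69) and SFN (1.19), and smaller for PDK4 (-0.79), CHGB (-0.94) and NFKBIZ (-0.89). Of the genes lowered in Rv1-Luc, the difference was negative for CNTNAP5 (-2.59), UGT2B28 (-2.58), UGT2B11 (-0.93), UGT2B15 (-0.63), ANGPTL4 (-0.62), SLC16A3 (-1.11), NDRG1 (-1.17), TP53INP2 (-0.88), TRGJ1 (-1.06), STEAP2 (-0.82), BTC (-1.25) and ISG20 (-1.35). Stress genes with a negative difference were CHAC1 (-2.59), DDIT4 (-2.30), DDIT3 (-2.14), ATF3 (-1.66), GPT2 (-1.06) and, of another family, NBPF1 (-1.39). It was positive for HSPA1B (1.96), HSPA8 (1.64), HMGCS1 (1.61), TUBB (0.98) and KLK3 (0.69), genes that were lower in the joint state of Rv1-WT.

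The SNX631 effect differed between CSS and FBS in Rv1-Luc for 16 genes. As CSS minus FBS, the difference was 0.89 for KANSL1L, 0.70 for ACADL, 1.18 for COLCA1, 0.69 for NKILA, -1.17 for NDRG1 and 5.15 for IGHG3. IGHG3 also had a difference of -4.01 between the lines, at levels of a few CPM, and total immunoglobulin counts per library varied with it as given in the report.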

How the results depend on the processing

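Leaving out each of the 6 libraries of the joint comparison in turn gave 759 to 805 called genes against 828. DESeq2, both other scalings, both other filters and fits on fewer libraries kept the count within 1.5 times. Tested against a 1.5-fold change instead, 270 genes were called in the joint comparison, 770 in Rv1-WT, 214 for the difference, 1 for the interaction, 201 and 215 for SNX631 in FBS and CSS, and 49 and 59 for CSS under vehicle and SNX631. At an FDR under 0.05 with no fold limit the counts were 4887, 9129, 5748, 102, 4063, 4778, 2800 and 2539 in the same order. The interaction count was 50 without a filter on low counts, 2 in the 12 Rv1-Luc libraries alone, and 8 to 31 when leaving out a library. CSS under SNX631 had 201 called genes in the 12 Rv1-Luc libraries alone. In the 6 libraries alone, 3 rather than 6 ATF4 genes were called lower.

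With the replicate block, 833 genes were called in the joint comparison, 2312 in Rv1-WT, 1334 for the difference and 19 for the interaction. Replicate numbers are shared labels only, since same-numbered libraries of the joint comparison correlated at -0.155, 0.272 and -0.12, and 1 of 3 correlated best with its own number. Between the CSS + SNX631 and FBS + SNX631 arms the values were 0.0817, 0.181 and 0.293, each the best match, and with the block 306 rather than 303 genes were called for CSS under SNX631. The alternatives for the single steps, other than the fit on 12 libraries, were chosen after seeing the data.

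List medians moved by more than the spread of the joint libraries as follows. Without a filter the Mediator kinase module gave 0.0015, mitosis -0.11 and DNA replication -0.049. A minimum count of 50 gave -0.10 for mitosis, 0.15 for keratins and -0.062 for surface antigens, and the 6 libraries alone -0.10 for mitosis. Leaving out a library gave -0.047 to 0.044 for the Mediator kinase module, -0.53 to -0.30 for ATF4, -0.24 to -0.14 for tRNA synthetases, -0.14 to -0.068 for mitosis, -0.054 to -0.019 for DNA replication, -0.64 to -0.57 for hypoxia, -0.094 to 0.015 for heat shock, 0.29 to 0.48 for keratins, 0.094 to 0.21 for Wnt and -0.014 to 0.036 for surface antigens. Step medians moved with a minimum count of 50, to 0.74 and 0.72 for SNX631 in FBS and CSS and 0.21 for CSS under vehicle over the higher genes, and to -0.63 and -0.24 for SNX631 in CSS and CSS under vehicle over the lower genes. For CSS under vehicle over the lower genes, library size alone gave -0.27, no filter -0.27 and the 12 libraries -0.27, and leaving out a library -0.28 to -0.26, or -0.35 to -0.31 for CSS under SNX631. The fit on fewer genes or libraries changes which members enter these medians.

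Over 85 named genes and 16 alternatives, 1272 of 1355 values kept their side of the threshold, 71 lost it, 12 gained it and 0 reversed. The causes of these changes were not tested.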
